A study of Mus musculus with 18 samples.

Results

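Endothelial cells of the mouse cortex on the side opposite to an experimental stroke were compared with cells of the same side after sham surgery. Of the 18 libraries in the study, 6 belong to this comparison, chosen by their titles: 3 from occluded (MCAO) mice, contralateral side, and 3 from sham mice, contralateral side. In MCAO the middle cerebral artery, which feeds much of one side of the cortex, is blocked to model an ischaemic stroke. All 6 libraries came from adult mice labelled WT and given tamoxifen at 75 mg per kg, the drug that induces the deletions in the study's knockout mice, so it was common to both groups. Cells were sorted on day 7 by CD31, with cells carrying CD41 or CD45 left out, a gate for endothelium without platelets and leukocytes. Nothing in the labels says whether the replicates were separate mice, or whether a contralateral library shares its mouse with an ipsilateral one. Each p-value therefore measures only the spread between libraries. The main test estimated that spread from all 18 libraries, those of the knockout mice included. The values are counts per gene, described here across the 17094 of 21638 genes that reached a count of 10 in 3 or more libraries.

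Brain endothelium forms the blood-brain barrier: tight junctions seal the cells together and transporters carry nutrients across them. Wnt ligands from neural cells, acting through the receptor Fzd4 and beta-catenin, keep up this barrier programme in the adult. The same cells face the blood, and cytokines of the interleukin-6 family switch on acute phase genes in them through STAT3 and C/EBP factors. Tissue on the far side of a stroke keeps its own blood flow but shares the circulation with the injured side.

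No gene passed the test. By edgeR's quasi-likelihood test, 0% of the 17094 genes were called at an adjusted p under 0.05, and the smallest adjusted p was 0.92. At an unadjusted p under 0.05 there were 453 higher genes after occlusion, 2.65% of those tested, and 301 lower genes, 1.76%. Together they made 754 genes, or 4.41%, less than the 5% that this threshold passes when nothing differs. That count moved with the analysis. It ran from 476 to 2357 genes over the alternative analyses given at the end, where 5% of the 17094 genes is 855. Genes whose 3 MCAO libraries all lay above the 3 sham libraries numbered 624, 3.65% of those tested, and genes with all 3 below numbered 1025, 6%, which makes 1649 genes or 9.65%. Every gene named below therefore has an adjusted p between 0.92 and 1, "higher" and "lower" describe the fitted difference, and unadjusted p-values are given beside the adjusted ones. A log2 fold change is MCAO minus sham and is followed by its standard error (SE). Its median over all genes was 0.17 with the main scaling and 0.30 with the RLE scaling of DESeq2, so the zero point itself moved by more than 0.1 with the scaling.

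Precision depended on level. Among the 2046 genes of 100 CPM or more (CPM, the count divided by the TMM-scaled library total, times 1e6), the 95% interval of the log2 fold change lay within 1 of 0 for 814 genes, or 39.8%, and within 2 of 0 for 96.5%. From 10 to 100 CPM the interval lay within 1 of 0 for 813 of 6138 genes. Under 1 CPM no gene reached that precision, and 161 genes were higher and 7 lower at an unadjusted p under 0.05. At 10 CPM and above the balance was the other way: 128 and 51 genes were higher in the bands from 10 to 100 CPM and from 100 CPM, while 181 and 67 were lower.

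**Figure D1:**
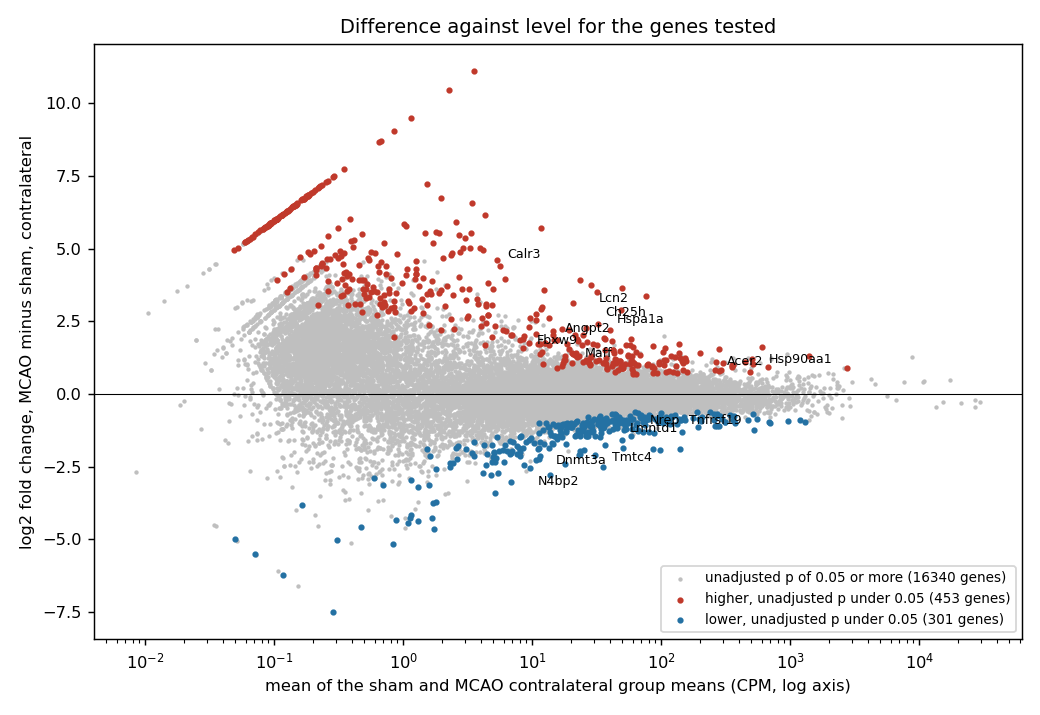
Log2 fold change, MCAO minus sham contralateral (y), against the mean level in CPM on a log axis (x), 1 point per gene tested. The 453 higher genes at an unadjusted p under 0.05 (red) lie in large part at low levels, and the 301 lower genes (blue) mostly at 10 CPM or more.

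One library stood apart. MCAO contralateral replicate 1 had the smallest total of the 6 (25791401 counts, against 29451282 to 57576255 in the others) and the most genes above 0 (20940). Its summed level of 1466 olfactory and vomeronasal receptor genes, which endothelium is not known to use, was 1889 CPM of the unscaled total, against 152 to 326 CPM in the other 5. Its median correlation with the other 17 libraries, across genes, was 0.868, against 0.951 to 0.967 for the other 5. It was the most extreme MCAO library for 279 of the 453 higher genes and 176 of the 301 lower genes. Without it, 200 and 146 of these stayed at an unadjusted p under 0.05 in the same direction, and the split over all genes turned from 453 higher and 301 lower to 488 higher and 944 lower. The Spearman correlation of the log2 fold change with transcript GC content was 0.132 with all libraries (genes of 10 CPM or more) and 0.336 without this library. The part of GC content in the split was not tested. For the main results that rest on this library, values are given with and without it below.

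The sorted cells carried the markers of endothelium in every library: the summed level of 18 core genes ran from 17760 to 32020 CPM in sham and from 16960 to 38160 CPM in MCAO. Red cell RNA was present throughout, with the 4 globin genes at 4.63% to 12.7% of the counts. Of the lists for other cell types, that for pericytes and smooth muscle separated the groups, and it is described further down. In bulk samples fewer cells of a type and less RNA per cell cannot be told apart, for those genes or any other.

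Genes of the acute phase and cytokine response stood higher on the far side of the occlusion. This list holds secreted acute phase proteins, some receptors of interleukin-6 type and other cytokines, and factors that these switch on. Of 27 genes, 25 could be tested, and 14 were higher and 1 lower at an unadjusted p under 0.05, where 2.65% and 1.76% of all genes were. For 11 of the 25 all MCAO libraries lay above all sham libraries, as for 3.65% of all genes. Their median log2 fold change was 1.18, beside 0.17 for all genes. Without MCAO contralateral replicate 1 the counts were 13 higher and 2 lower, and the median was 1.37 beside −0.13. Without sham contralateral replicate 2 they were 9 higher and 0 lower. The list was drawn up with earlier results of these data known, so it is no independent evidence of its direction.

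The 2 genes of that list with the smallest p, Ch25h and Lcn2, are shown first by the sequence before their RefSeq start site, because both hold a match to the C/EBP motif TTGCNNAA (capitals; either strand). The sequences are 250 bases each from RefSeq on GRCm38.p6, 5′ to 3′ on the gene's strand, chr19:34475149-34475398 and chr2:32387740-32387989, both minus. The RefSeq start of each lies inside the gene interval of the deposited table, which begins further upstream, so the window of Lcn2 lies within that interval and that of Ch25h overlaps it.
Ch25h: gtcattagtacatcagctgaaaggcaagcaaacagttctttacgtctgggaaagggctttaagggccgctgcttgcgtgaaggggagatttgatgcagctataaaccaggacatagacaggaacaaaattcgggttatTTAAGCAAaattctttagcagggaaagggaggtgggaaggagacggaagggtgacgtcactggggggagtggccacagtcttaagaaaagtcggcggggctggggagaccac
Lcn2: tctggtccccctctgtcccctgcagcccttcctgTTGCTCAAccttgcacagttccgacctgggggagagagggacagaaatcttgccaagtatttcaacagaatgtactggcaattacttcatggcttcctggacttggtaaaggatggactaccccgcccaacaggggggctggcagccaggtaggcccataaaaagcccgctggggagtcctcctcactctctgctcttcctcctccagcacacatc
This motif lay in 6 of the 23 list members with a window of 300 bases (26.1%), against 9.48% of 13227 promoters. The STAT motif TTCNNNGAA, searched on both strands, lay in 5 of the 23 (21.7%, against 7.41%), among them Socs3 and Scgb3a1. A match describes letters and not a bound site.

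Lcn2 encodes lipocalin 2, a secreted protein that binds iron-carrying siderophores and a classic acute phase product of brain vessels. It lies on chromosome 2, 32384633 to 32388252, minus strand. In the sham libraries Lcn2 stood at 2.76, 4.57 and 4.63 CPM, and in the MCAO libraries at 50.8, 37.9 and 71.4 CPM. All 3 MCAO libraries lay far above the sham libraries, and the library that stood apart was the middle of the 3. The fitted log2 difference was 3.74 ± 0.97 (adjusted p = 0.92, unadjusted 0.000943).

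Ch25h encodes cholesterol 25-hydroxylase, which makes the oxysterol 25-hydroxycholesterol, and lies on chromosome 19, 34473778 to 34475164, minus strand. Levels of Ch25h were 6.90, 6.79 and 16.9 CPM in sham and 79.3, 31.6 and 53.6 CPM in MCAO. The groups did not overlap, with MCAO replicate 1 highest. This gave a log2 fold change of 2.43 ± 0.55 (adjusted p = 0.92, unadjusted 0.000245), and 2.06 without that library.

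Among the intracellular members, Cebpd, a C/EBP factor induced by cytokines, had a log2 fold change of 1.36 ± 0.41 (adjusted p = 0.92, unadjusted 0.00295). The MCAO libraries held Cebpd at 56.9, 89.4 and 91.5 CPM, and the sham libraries at 20.8, 33.2 and 38.5 CPM. Socs3, the feedback inhibitor of the gp130 receptor, also separated the groups. Sham libraries had 6.13, 5.52 and 7.59 CPM of Socs3, and MCAO libraries 14.8, 9.85 and 25.2 CPM. The fit put the log2 fold change at 1.37 ± 0.51. Smaller separations were found for Stat3, the transcription factor of this pathway (0.76 ± 0.32), and Pim3, a serine/threonine kinase (1.18 ± 0.43). Serpina3n, a protease inhibitor of the acute phase, stood near the limit of detection in sham libraries. For Serpina3n the sham values were 0, 0.135 and 0.0480 CPM and the MCAO values 3.20, 0.915 and 1.09 CPM. Its paralogs Serpina3f and Serpina3g are close copies, so the split of reads between the 3 is uncertain.

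The receptors differed in direction. Osmr, the oncostatin M receptor, was at 268, 124 and 58.7 CPM in MCAO, against 59.0, 75.7 and 65.3 CPM in sham. The groups overlapped, and the log2 fold change of 1.17 ± 0.42 became 0.46 without MCAO replicate 1. Il1r1, the interleukin-1 receptor, showed the same dependence (1.18 ± 0.51, and 0.39 without it). Il6ra, the interleukin-6 receptor chain, was the 1 lower gene of the list (−1.03 ± 0.40). Il6ra was found at 31.8, 52.3 and 22.4 CPM in sham and at 18.7, 16.2 and 17.3 CPM in MCAO. Lifr, the receptor of leukaemia inhibitory factor, was not on the list but was among the 10 lower genes with the smallest p. Lifr measured 123, 144 and 112 CPM in the sham libraries and 20.6, 69.9 and 59.9 CPM in the MCAO libraries. Its MCAO libraries all lay below the sham libraries, with a log2 fold change of −1.33 ± 0.36.

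Lrg1 varied widely within the MCAO group. It encodes a leucine-rich glycoprotein that modifies TGF-beta signalling in vessels. In the sham libraries Lrg1 stood at 0.153, 0.0673 and 1.06 CPM, and in the MCAO libraries at 0, 24.2 and 44.1 CPM. Lrg1 was at 0 in MCAO replicate 1 and was high in the other 2 libraries, so the groups overlapped. Scgb3a1, a small secreted secretoglobin, had MCAO libraries all above sham but an adjusted p of 0.92 (unadjusted 0.077). Levels of Scgb3a1 were 31.4, 39.2 and 39.7 CPM in sham and 67.4, 123 and 106 CPM in MCAO.

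**Figure D2:**
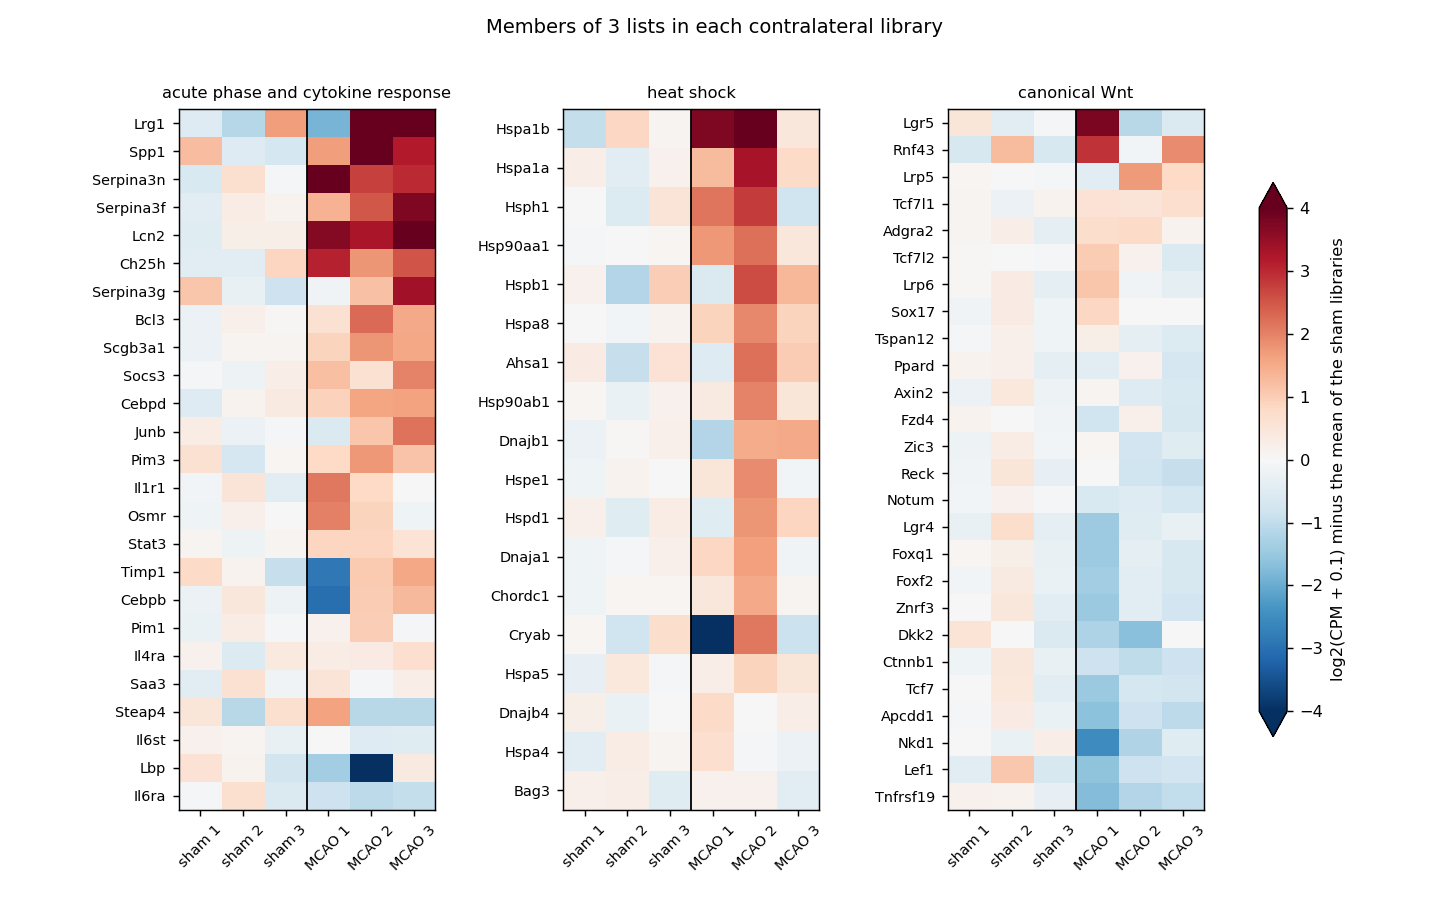
Each cell is log2(CPM + 0.1) of 1 gene in 1 library, minus the mean of the 3 sham contralateral libraries. In the acute phase list all 3 MCAO libraries are red for Lcn2, Ch25h and Cebpd, in the heat shock list MCAO replicate 2 is the deepest red for most genes, and in the Wnt list Ctnnb1, Tcf7, Apcdd1, Lef1 and Tnfrsf19 are blue in all 3 MCAO libraries.

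Heat shock chaperones were the other higher group, and this result rested on 1 library. These proteins refold or hold damaged proteins. Of 18 genes, 8 were higher and 0 lower at an unadjusted p under 0.05, where 2.65% and 1.76% of all genes were. The median log2 fold change was 1.01, beside 0.17 for all genes. In 5 of the 18 all MCAO libraries lay above sham, as in 3.65% of all genes. MCAO contralateral replicate 2 was the highest library for 7 of the 8, and without it 2 genes stood higher at an unadjusted p under 0.05 and the median was 0.38. Without MCAO replicate 1, by contrast, 12 did, and 5 did without sham replicate 1 and 5 without sham replicate 2. Replicate 2 also had the largest share of globin counts, 12.7%. Whether that share has a part in the chaperone levels was not tested.

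Hsp90aa1, the inducible cytosolic HSP90, lies on chromosome 12, 110690605 to 110702728, minus strand. The MCAO libraries held Hsp90aa1 at 976, 1341 and 400.4 CPM, and the sham libraries at 276, 296 and 308 CPM. The groups did not overlap, and the log2 fold change was 1.63 ± 0.43 (adjusted p = 0.92, unadjusted 0.00119). Hspa8, the constitutive HSC70, was also separated. Sham libraries had 789, 746 and 879.6 CPM of Hspa8, and MCAO libraries 1496, 3062 and 1483 CPM. On the log2 scale the difference was 1.32 ± 0.41.

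Hspa1a and Hspa1b encode the inducible HSP70. Of the stretches of 50 bases in the GENCODE M21 transcript of Hspa1a, 58.8% are also in that of Hspa1b, and reads within those cannot be assigned by sequence. Their upstream sequences are shown because the pair is nearly the same there too: over 250 bases (RefSeq, GRCm38.p6, minus strand, chr17:34972157-34972406 and chr17:34959239-34959488) they differ at 3 positions, given in capitals.
Hspa1a: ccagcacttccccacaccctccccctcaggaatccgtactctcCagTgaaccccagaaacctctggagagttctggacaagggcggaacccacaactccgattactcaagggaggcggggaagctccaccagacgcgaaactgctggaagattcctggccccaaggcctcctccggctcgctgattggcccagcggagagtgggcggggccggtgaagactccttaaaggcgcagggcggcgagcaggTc
Hspa1b: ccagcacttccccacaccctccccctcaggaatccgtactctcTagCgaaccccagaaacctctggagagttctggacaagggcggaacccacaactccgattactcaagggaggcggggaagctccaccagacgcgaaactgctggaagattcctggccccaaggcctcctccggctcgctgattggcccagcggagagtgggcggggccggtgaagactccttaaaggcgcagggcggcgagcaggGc
For Hspa1a the sham values were 16.9, 10.3 and 15.7 CPM and the MCAO values 33.4, 139 and 24.0 CPM. Hspa1b was found at 6.08, 21.3 and 13.0 CPM in sham and at 159.5, 244 and 16.3 CPM in MCAO. Hspa1a had no overlap between groups and Hspa1b did, because its MCAO replicate 3 lay among the sham values. The log2 fold changes were 2.19 ± 0.59 and 3.38 ± 0.77. Without MCAO replicate 2 they were 0.98 (unadjusted p of 0.0724 by edgeR) and 2.65. Hspa1a also overlaps the predicted gene Gm20481 on the other strand, and the counting strand is not given in the sources used here. The heat shock element, 3 alternating units of GAA and TTC with NN between units and searched on both strands, lay in 3 of the 14 list members with a window (21.4%: Hspe1, Hsph1 and Chordc1), against 0.454% of all 13227.

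Genes of the canonical Wnt pathway stood lower. Of 26 genes from receptors to targets, 0 were higher and 8 lower at an unadjusted p under 0.05, where 2.65% and 1.76% of all genes were. In 9 of the 26 all MCAO libraries lay below all sham libraries, as in 6% of all genes. The median log2 fold change was −0.46, beside 0.17 for all genes. Without MCAO contralateral replicate 1 it was −0.57 beside −0.13, with 5 lower. Sham contralateral replicate 2 was the highest library for 6 of the 8 lower genes, and without it 3 were lower and 1 higher, with a median of −0.31.

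By role, none of the frizzled and LRP receptors and their partners was at an unadjusted p under 0.05, and the 8 lower genes were beta-catenin, factors that bind it, and targets or feedback genes. Fzd4, the Norrin and Wnt receptor, had a log2 fold change of −0.34 ± 0.35 and Tspan12, its tetraspanin partner, −0.21 ± 0.30. Ctnnb1, which encodes beta-catenin, was lower without overlap. Ctnnb1 measured 1086, 1684 and 1009 CPM in the sham libraries and 691, 613 and 692 CPM in the MCAO libraries. Its log2 fold change was −0.92 ± 0.31 (adjusted p = 0.92, unadjusted 0.00728). The transcription factors Lef1 and Tcf7, which bind beta-catenin at its targets, had −1.24 ± 0.46 and −0.98 ± 0.34. In the sham libraries Lef1 stood at 463, 1338 and 403 CPM, and in the MCAO libraries at 204, 358 and 374 CPM. The sham value of 1338 CPM stood alone in its group, and MCAO libraries lay below all 3 sham libraries. Without sham replicate 2 the log2 fold change of Lef1 was −0.47 (unadjusted p of 0.294 by edgeR). Without MCAO replicate 1 it was −1.01 (unadjusted p of 0.0602 by edgeR). Tcf7l1 and Tcf7l2, of the same factor family, had 0.59 ± 0.98 and 0.35 ± 0.37, neither at an unadjusted p under 0.05.

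Of the targets, Tnfrsf19, also called Troy, a receptor of the TNF family that marks beta-catenin activity in brain vessels, had the smallest p. It lies on chromosome 14, 60963875 to 61046490, minus strand. Levels of Tnfrsf19 were 229.5, 225 and 159 CPM in sham and 60.9, 88.8 and 101 CPM in MCAO. The groups were clearly apart, and the log2 fold change was −1.29 ± 0.31 (adjusted p = 0.92, unadjusted 0.000511). Apcdd1, a membrane-bound Wnt inhibitor induced by the pathway, gave −1.15 ± 0.35 (adjusted p = 0.92, unadjusted 0.00346). The MCAO libraries held Apcdd1 at 84.6, 148 and 127 CPM, and the sham libraries at 253, 326 and 216 CPM. Nkd1, a feedback inhibitor, gave −1.20 ± 0.48, and the forkhead factors Foxf2 and Foxq1 gave −0.78 ± 0.33 and −0.78 ± 0.35. Without MCAO replicate 1, Nkd1, Foxf2 and Foxq1 had −0.82, −0.54 and −0.53. Their unadjusted p by edgeR was then 0.0813, 0.114 and 0.142. Axin2, the most used target of the pathway, had −0.33 ± 0.44 (adjusted p = 0.931, unadjusted 0.465) and was not separated. The TCF/LEF motif ATCAAAG was found in 0 of the 16 list members with a promoter window, where 3.03% of all promoters had it.

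**Figure D3:**
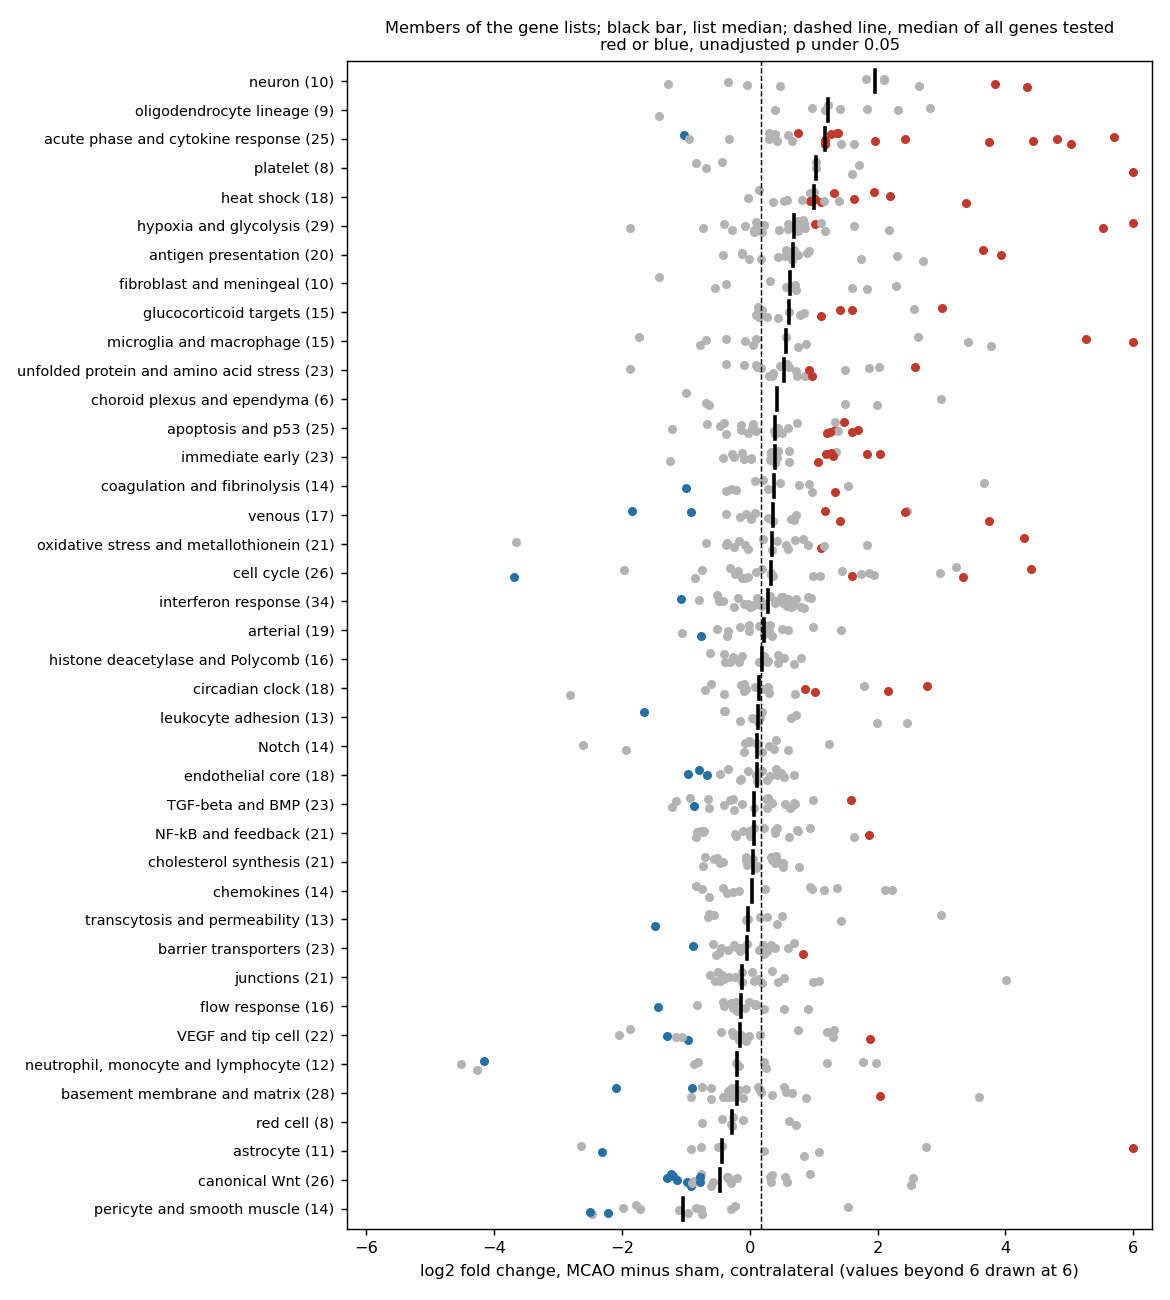
Log2 fold change, MCAO minus sham contralateral (x), of each tested member of the 40 gene lists (rows, number tested in brackets); black bars are list medians and the dashed line is the median of all genes, 0.17. Red and blue points have an unadjusted p under 0.05; the acute phase and heat shock lists hold 14 and 8 red points, and the Wnt list 8 blue points.

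In the barrier lists few genes reached an unadjusted p under 0.05. Of 21 junction genes 0 were at an unadjusted p under 0.05 in either direction, and of 23 barrier transporters 1 was higher and 1 lower (3 higher without MCAO replicate 1). Of all genes 2.65% were higher and 1.76% lower. By overlap, 1 of the 23 transporters lay above sham and 4 below in all MCAO libraries, and of the junction genes 0 above and 2 below, beside 3.65% and 6% of all genes. Cldn5, the main claudin of the barrier, was spread within the MCAO group. Sham libraries had 1502, 722 and 1357 CPM of Cldn5, and MCAO libraries 260.4, 1942 and 1866 CPM. MCAO replicate 1 was lowest of all 6, and the interval of the log2 fold change ran from −0.96 to 1.33. For Cdh5, the endothelial cadherin, all MCAO libraries were below the sham libraries, though the nearest pair is equal once rounded, with an interval from −1.12 to 0.18. For Cdh5 the sham values were 286, 379 and 258 CPM and the MCAO values 239, 258 and 170.3 CPM. Slc2a1, the glucose transporter GLUT1, stood higher in all 3 MCAO libraries without passing an unadjusted p of 0.05. Slc2a1 was found at 924, 978 and 875 CPM in sham and at 1110.3, 2002 and 1082 CPM in MCAO. The fitted log2 difference was 0.59 ± 0.32 (adjusted p = 0.92, unadjusted 0.081). Mfsd2a, the lipid transporter that limits transcytosis, gave 0.14 ± 0.32. Intervals within 1 of 0 were reached by 8 of 21 junction genes and 11 of 23 transporters, and differences up to those bounds are not excluded.

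The transporter that was lower was Slc6a6, which carries taurine. Slc6a6 measured 1485, 1915 and 1244 CPM in the sham libraries and 856, 637 and 1009.9 CPM in the MCAO libraries. The groups did not overlap, and the log2 fold change was −0.89 ± 0.31 (adjusted p = 0.92, unadjusted 0.00861). Slc3a2, the heavy chain of amino acid transporters, was the higher one (0.83 ± 0.36), but MCAO replicate 1 lay within the sham range. In the sham libraries Slc3a2 stood at 204, 174 and 255 CPM, and in the MCAO libraries at 186, 388 and 548 CPM.

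Core endothelial genes were mixed, with 0 of 18 higher and 3 lower at an unadjusted p under 0.05, where 2.65% and 1.76% of all genes were. The list had 1 lower without MCAO replicate 3, 0 lower without sham replicate 2, and 3 higher and 2 lower without MCAO replicate 1. Kdr, the VEGF receptor 2, was lower without overlap. Levels of Kdr were 346, 594 and 297 CPM in sham and 179, 196 and 258 CPM in MCAO. This gave a log2 fold change of −0.97 ± 0.34 (adjusted p = 0.92, unadjusted 0.00981). Tek, the receptor Tie2, gave −0.67 ± 0.29, and the lineage factor Erg gave −0.79 ± 0.34. Pecam1, the CD31 used for the sort, was at 352, 262 and 317 CPM in sham and 212, 420.3 and 364 CPM in MCAO, and these overlap. Vegfc, a ligand of lymphatic and endothelial VEGF receptors, gave −0.76 ± 0.36, and Nrp2, its co-receptor, gave −1.30 ± 0.49. Of 15 alternative analyses, an unadjusted p under 0.05 was reached in 14 for Kdr, 9 for Tek, 8 for Erg, 7 for Vegfc and 13 for Nrp2.

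Angpt2, the Tie2 ligand that opposes Angpt1, was higher in all MCAO libraries. The MCAO libraries held Angpt2 at 27.9, 19.8 and 26.2 CPM, and the sham libraries at 4.34, 10.0 and 5.81 CPM. The fit put the log2 fold change at 1.87 ± 0.52 (adjusted p = 0.92, unadjusted 0.0016). It lies on chromosome 8, 18690263 to 18741562, minus strand, within Mcph1 on the other strand, and without a stated strand setting reads of the pair cannot be told apart. Acer2, a Golgi ceramidase that releases sphingosine, had the smallest p of the higher genes named by rank. Sham libraries had 140.0, 133 and 159.6 CPM of Acer2, and MCAO libraries 537, 444 and 283 CPM. The sham libraries were tight, all MCAO libraries lay above them, and the log2 fold change was 1.55 ± 0.34 (adjusted p = 0.92, unadjusted 0.00018). It lies on chromosome 4, 86874396 to 86934822, plus strand.

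The other genes with the smallest p and no overlap included 4 more that were higher. Calr3, a calreticulin family member known from testis, was at 0.332, 0.605 and 0.576 CPM in sham and 0.753, 19.5 and 12.3 CPM in MCAO. MCAO replicate 1 lay just above the sham range and the other 2 far above it. Fbxw9, an F-box protein of ubiquitin ligases, was at 3.68, 3.16 and 2.79 CPM in sham and 26.9, 8.17 and 12.3 CPM in MCAO. The small Maf factor Maff gave 1.83 ± 0.51. Nupl1, a nuclear pore protein whose gene overlaps Atp8a2 on the same strand, had its largest value in the library that stood apart (4.60 ± 1.31, and 2.99 without it).

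Among the lower genes, Nrep, a neuronal regeneration protein also found in vessels, stood close together within the MCAO group. For Nrep the sham values were 120.5, 78.6 and 108 CPM and the MCAO values 40.6, 44.0 and 40.9 CPM. All MCAO values lay below sham, with a log2 fold change of −1.29 ± 0.31 (adjusted p = 0.92, unadjusted 0.000407). Dnmt3a, a DNA methyltransferase that sets new marks, was lower as well. Dnmt3a was found at 23.1, 21.6 and 18.7 CPM in sham and at 8.63, 3.35 and 5.70 CPM in MCAO. On the log2 scale the difference was −1.84 ± 0.50 (adjusted p = 0.92, unadjusted 0.00129). The Polycomb-associated Auts2 gave −1.45 ± 0.38, the lipid transfer protein Osbpl8 −1.22 ± 0.33 and the lamin-tail protein Lmntd1 −1.56 ± 0.41. Tmtc4, an enzyme of protein mannosylation, gave −1.75 ± 0.42, N4bp2 −2.56 ± 0.63 and the zinc finger factor Zfp521 −2.27 ± 0.61. The regulators deleted elsewhere in the study were not separated: Hdac2, a histone deacetylase, gave −0.38 ± 0.32 and Ezh2, the Polycomb methyltransferase, 0.69 ± 0.86. Of the 20 genes taken by p, 19 stayed at an unadjusted p under 0.05 in all 15 alternative analyses, and Hspa1a did in 14. The 20 were picked by p and lack of overlap in these same libraries, which the alternatives reuse, so this is no independent support.

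**Figure D4:**
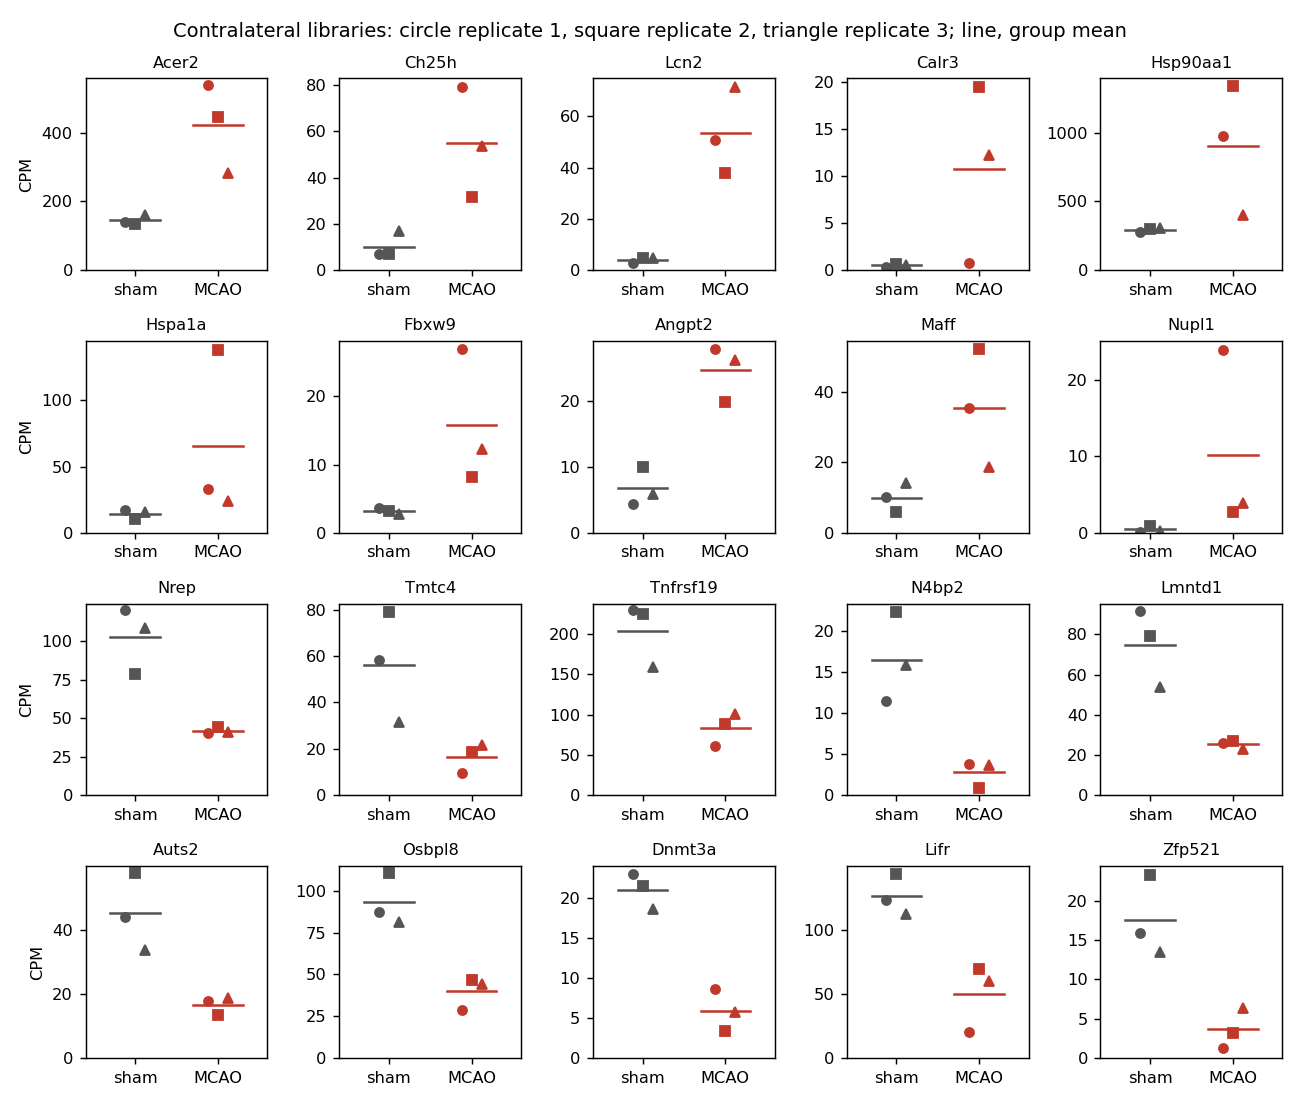
Level in CPM (y, from 0) of the 20 genes taken by p, in the 3 sham and 3 MCAO contralateral libraries; circle, square and triangle are replicates 1, 2 and 3, and the line is the group mean. In each panel the groups do not overlap; Lcn2 and Nrep are high or low in all 3 MCAO libraries, while Hspa1a is highest in replicate 2 and Nupl1 in replicate 1.

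Lists for other stress responses held fewer higher genes. Of 25 genes for apoptosis and p53, 6 were higher and 0 lower at an unadjusted p under 0.05. Beside this and the other list counts below, 2.65% of all genes were higher and 1.76% lower in the main fit. In the apoptosis list 3 to 6 were higher when each library was left out in turn, lowest without MCAO replicate 3. Bcl2l1, the survival protein BCL-XL, did not overlap between groups. Bcl2l1 measured 38.1, 22.9 and 40.1 CPM in the sham libraries and 73.4, 119 and 61.5 CPM in the MCAO libraries. Its log2 fold change was 1.33 ± 0.42. Cdkn1a, the p53 target p21, was highest in MCAO replicate 2 (72.8, 332 and 75.2 CPM, against 58.0, 37.0 and 63.2 CPM in sham). Glucocorticoid targets had 4 of 15 higher, among them Fkbp5 and Sult1a1. Fkbp5, an HSP90 co-chaperone, gave 3.00 ± 1.07, and 2.34 without MCAO replicate 2. Its groups overlapped, with 25.6, 35.5 and 1.89 CPM in MCAO, against 1.58, 4.74 and 1.54 CPM in sham. Sult1a1, a sulfotransferase whose gene overlaps Sgf29 on the other strand, gave 1.41 ± 0.49. The count of higher glucocorticoid targets was 0 without MCAO replicate 2, 2 without sham replicate 2 and 7 without MCAO replicate 1. The unfolded protein list had 3 of 23 higher, with Herpud1, a factor of ER-associated degradation, at 0.92 ± 0.37, and the hypoxia and glycolysis list 3 of 29, with the mitophagy receptor Bnip3 at 1.02 ± 0.38. Without MCAO contralateral replicate 1 both lists held 12 higher genes, and the unfolded protein list held 0 without MCAO replicate 2, 0 without sham replicate 1 and 1 without sham replicate 3.

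Circadian genes had 4 of 18 higher at an unadjusted p under 0.05, beside 2.65% of all genes (2 without MCAO replicate 1 and 2 without sham replicate 3). The 4 included Ciart, a clock repressor. In the sham libraries Ciart stood at 5.85, 2.12 and 7.73 CPM, and in the MCAO libraries at 27.9, 17.1 and 25.6 CPM. The fitted log2 difference was 2.17 ± 0.82. Time of day of the harvest is not given in the labels.

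Pericyte and smooth muscle genes had the lowest median of the 40 lists, although without MCAO contralateral replicate 1 the leukocyte list was lower (−2.36, against −1.07 for pericytes). Pericytes wrap the endothelium and can stay attached through a sort. Of 15 marker genes 14 could be tested, 0 were higher and 2 lower at an unadjusted p under 0.05, and 5 lay below sham in all MCAO libraries, with a median log2 fold change of −1.04. Of all genes 2.65% were higher and 1.76% lower at that threshold, and 6% lay below sham in all MCAO libraries. The count of lower genes was 1 without MCAO replicate 1 and 1 without sham replicate 1. The summed level of the list was 279, 138 and 155 CPM in sham and 18.3, 89.6 and 103 CPM in MCAO, so the groups did not overlap (exact permutation p = 0.1, the smallest possible with 3 against 3; adjusted 0.7 over the 11 marker lists). Rgs5, a regulator of G protein signalling and a leading pericyte marker, was at 88.3, 55.2 and 37.0 CPM in sham and 4.18, 15.3 and 12.5 CPM in MCAO. This gave a log2 fold change of −2.50 ± 0.69 (adjusted p = 0.92, unadjusted 0.00154). Higd1b and the receptor Pdgfrb gave −2.23 ± 1.01 and −2.48 ± 1.26. No gene of the list was at 0 in all 6 libraries.

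The other marker lists overlapped between the groups when summed. Microglia and macrophage genes summed to 65.0 to 84.6 CPM in sham and 56.5 to 105 CPM in MCAO, leukocyte genes to 12.8 to 22.2 and 7.91 to 16.0 CPM, and oligodendrocyte lineage genes to 32.7 to 74.7 and 62.0 to 226 CPM. Astrocyte genes summed to 1667 to 1985 and 1767 to 2218 CPM, platelet genes to 25.5 to 38.1 and 22.4 to 72.6 CPM, and neuron genes to 9.58 to 11.6 and 9.66 to 26.4 CPM. Choroid plexus genes summed to 20.4 to 101 and 0.771 to 459 CPM, and fibroblast genes to 5.62 to 7.37 and 2.83 to 12.2 CPM. The astrocyte list includes Slco1c1 and Gja1, which are also on the barrier transporter and junction lists. The choroid plexus list includes Aqp1 and Plvap, which are also on a list for transcytosis. The sums of these lists therefore cannot be read as amounts of astrocytes or choroid plexus. Foxj1, of the ependyma, was at 0 in all 6 libraries. C1qa, a complement gene of microglia, was at 0 in all sham libraries and at 11.4, 2.13 and 0.0857 CPM in MCAO. The highest value was in the library that stood apart, and the lowest was near the floor of 3 counts (0.0643 CPM). C1qa was named for its small p among 15 microglia and macrophage genes tested. Their log2 fold changes ran from −1.74 to 10.5, with 10 above 0, as were 10134 of all 17094 genes. At an unadjusted p under 0.05, 2 were higher and 0 lower, beside 2.65% and 1.76% of all genes. The part of these marker genes and of the pericyte genes in the results above was not tested.

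Immediate early genes, the first to answer a stimulus or a dissociation, were higher in 6 of 23 at an unadjusted p under 0.05 and lower in 0. Of all genes 2.65% were higher and 1.76% lower. Atf3, a stress-induced repressor, did not overlap between groups. Levels of Atf3 were 60.0, 75.5 and 71.9 CPM in sham and 108, 136 and 267 CPM in MCAO. The fit put the log2 fold change at 1.30 ± 0.38 (adjusted p = 0.92, unadjusted 0.00223). Nr4a3, an orphan nuclear receptor, was also apart (2.04 ± 0.88). Leaving out MCAO contralateral replicate 3 gave 3 higher and 2 lower, and leaving out sham contralateral replicate 2 gave 3 higher and 0 lower.

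The contralateral difference was also set beside the same comparison on the injured side, which uses other libraries. Among the 754 genes at an unadjusted p under 0.05, 551 (73.1%) had the same direction there, against 52.1% of all genes. The share was 90% for the 301 lower genes and 61.8% for the 453 higher genes. These 2 shares do not have the same baseline, since the median log2 fold change over all genes was 0.17 contralaterally and −0.094 ipsilaterally. The 2 sets also differ in level, with 161 of the higher and 7 of the lower genes under 1 CPM. What part this has in the shares was not tested. At an unadjusted p under 0.05 in the same direction on the injured side were 191 genes, which is 25.3% of the contralateral genes and 15.8% of the 1210 ipsilateral ones. Ipsilaterally, 7.08% of genes were at an unadjusted p under 0.05 (4.26% higher and 2.81% lower) and 0% were called, with a smallest adjusted p of 0.125. The mice of the 2 sides may be shared, which the labels do not say, and these shares would then not come from independent mice.

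The difference between the sides was tested directly for every gene, with the libraries taken as unpaired, and 0% passed an adjusted p of 0.05 (smallest 0.941), with 578 genes, or 3.38%, at an unadjusted p under 0.05. For Lcn2 the log2 fold changes were 3.74 ± 0.97 contralaterally and 4.34 ± 1.00 ipsilaterally, and for Acer2 1.55 ± 0.34 and 1.55 ± 0.34. For Tnfrsf19 they were −1.29 ± 0.31 and −0.95 ± 0.31, and for Angpt2 1.87 ± 0.52 and 1.58 ± 0.51. MCAO replicates 1, 2 and 3 held Acer2 at 537, 444 and 283 CPM contralaterally and at 552, 457 and 269 CPM ipsilaterally. For Lcn2 the order differed, with 50.8, 37.9 and 71.4 CPM contralaterally and 58.2, 61.3 and 32.1 CPM ipsilaterally. Because mice may be shared between the sides, like values on both need not come from independent mice. At an unadjusted p under 0.05 ipsilaterally, where 4.26% of all genes were higher and 2.81% lower, acute phase genes counted 13 higher and 1 lower. Heat shock genes counted 13 and 0, and Wnt genes 0 and 3. Differences between sides at an unadjusted p under 0.05 numbered 1, 0 and 0 in these lists.

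**Figure D5:**
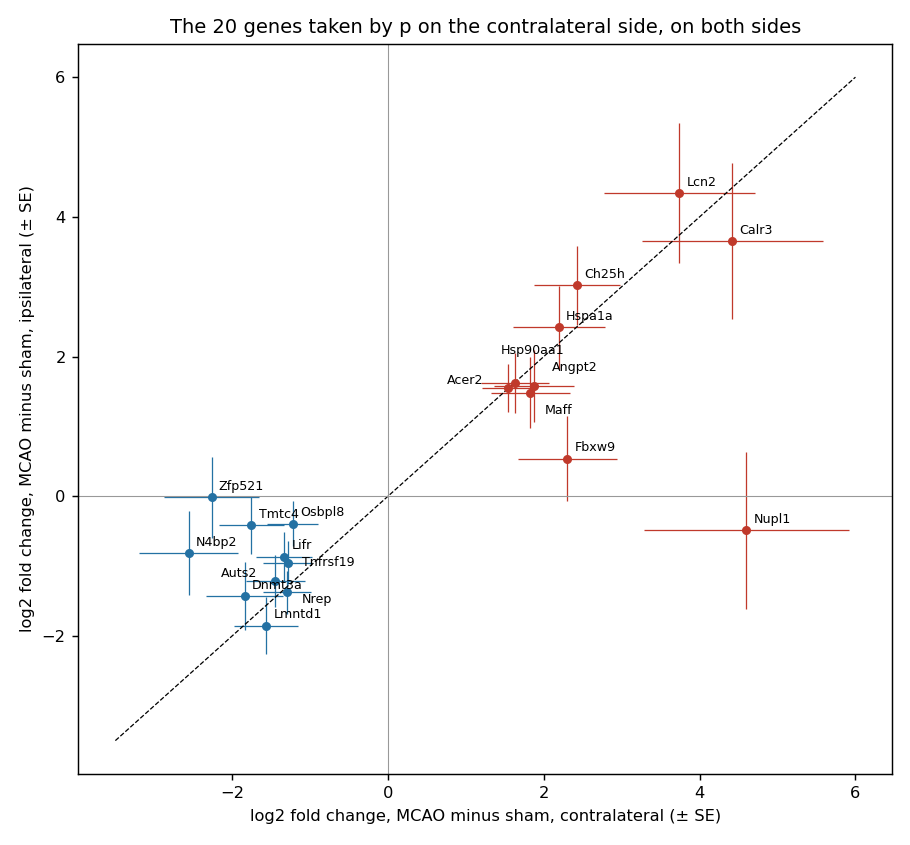
Log2 fold change, MCAO minus sham, on the contralateral (x) and ipsilateral (y) side, with SE bars, for the 20 genes taken by their contralateral p; the dashed line marks equal values. Lcn2, Acer2 and Nrep lie near the line, while Fbxw9, Nupl1, Tmtc4 and Zfp521 lie nearer to 0 on the ipsilateral side.

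Some lists had unlike counts on the 2 sides. Of all genes, 2.65% were higher contralaterally and 4.26% ipsilaterally at an unadjusted p under 0.05, and 3.38% differed between the sides. Interferon-induced genes had 0 of 34 higher contralaterally (median 0.28) and 15 of 34 ipsilaterally (median 0.79), and 0 of 34 had a difference between sides at an unadjusted p under 0.05 with the libraries taken as unpaired. Rsad2, an antiviral enzyme, was the 1 lower gene contralaterally (−1.08 ± 0.38). Without MCAO contralateral replicate 1, 7 interferon genes were higher contralaterally. Immediate early genes had 4 of 23 with a side difference at an unadjusted p under 0.05: Atf3, Fosb, Nr4a1 and Nr4a2. For Nr4a1, a nuclear receptor, the log2 fold change was 0.61 ± 0.32 contralaterally and −0.66 ± 0.32 ipsilaterally (adjusted p of the difference 0.941, unadjusted 0.00994). For Scgb3a1 it was 1.43 ± 0.77 and 4.70 ± 0.88 (adjusted p of the difference 0.941, unadjusted 0.00702), with MCAO higher on both sides. H2-Q7, an MHC class I gene with close copies such as H2-Q6, was high in 1 MCAO library above the others (2.92, 31.7 and 243 CPM in MCAO, against 8.51, 7.00 and 6.77 CPM in sham). The ipsilateral side was alike for H2-Q7, with 17.1, 51.6 and 205 CPM in MCAO, against 10.1, 3.31 and 4.63 CPM in sham. Its log2 fold changes were 3.64 ± 1.04 contralaterally and 3.92 ± 1.05 ipsilaterally (edgeR, adjusted p of the difference 0.983, unadjusted 0.836).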

How the data were processed

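The authors deposited 1 table of counts per gene for all 18 libraries, made from read pairs of SMART-Seq libraries of sorted cells. The submitters' processing notes name FastQC, cutadapt, STAR, featureCounts, DESeq2 and build mm10, without versions or settings. The table's name calls the values normalized, but they are whole numbers with unequal totals, and per library 77.3% to 89.4% of counts between 1 and 20 are even, so the deposited counts were treated as unscaled. Symbols were matched to GENCODE M21 (21442 of 21636), and 0 columns of values lacked a sample.

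The fit used edgeR 4.0.16 in R 4.3.3 (quasi-likelihood F-test, TMM) on 6 group means over all 18 libraries, for genes reaching a count of 10 in 3 or more libraries, with Benjamini-Hochberg adjustment over 17094 genes. The SE is the log2 fold change divided by the root of F. Marker sums were compared with a two-sided exact permutation test. Alternatives used RLE scaling, unscaled totals for the marker sums, no filter, limma 3.58.1 voom with sample weights, DESeq2 1.42.0, only the compared groups, a replicate block, halved counts, a background covariate, each library left out in turn and, added after the values were seen, removal of each library's GC trend and a replicate block across the sides. The script was tested on simulated data.

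Genes were named by rule: the 10 higher and 10 lower genes with the smallest unadjusted p, among genes whose groups did not overlap and averaged 5 CPM or more in either (predicted genes passed over), up to 2 genes per list, and a few fixed genes. Other named genes were chosen after their values were seen. Members and lists were chosen with earlier results of these data known.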

Additional observations from a re-analysis of the deposited data

How the results depend on the processing

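The count of genes called for MCAO against sham was 0 with the main fit (754 at an unadjusted p under 0.05) and 0 with every alternative except DESeq2 (26, of which 21 were higher), voom with sample weights (7, of which 6 were higher) and the fit without MCAO contralateral replicate 1 (1, the predicted gene Gm10320). The count for the difference between sides was 0 with the main fit, 6 with DESeq2 and 1 with voom. Leaving out each library in turn gave 0 to 1 called genes. DESeq2 called Lcn2, Ch25h, Acer2, Angpt2, Hspa1b, Tmtc4 and Zfp521 among others, and voom called Lcn2 and Calr3; the cause was not tested.

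Unadjusted p under 0.05 was reached by 1387 genes with DESeq2, 2357 with voom, 1253 with the background covariate, 476 with only the compared groups and 540 to 1432 with 1 library left out, against 754. The split of higher and lower genes was 453 and 301 with the main fit, 671 and 232 with RLE scaling, 1044 and 343 with DESeq2, 943 and 1414 with voom, 464 and 789 with the background covariate. Without a low count filter 1044 genes passed, and with the GC trend removed 787.

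Without MCAO replicate 1 the list medians were −2.36 for leukocytes, 0.345 for platelets and 0.812 for neurons, against −0.195, 1.03 and 1.96. With 1 library left out at a time, directions reversed within the ranges −0.00497 to 2.19 for Id4, −0.156 to 0.674 for Cldn5, −0.114 to 0.34 for Pecam1, −0.0172 to 0.335 for Mfsd2a and −0.17 to 0.569 for Nr4a2. Other settings reversed Cldn5 (−0.0475 with the GC trend removed), Pecam1 and Mfsd2a (−0.0356 and −0.00109 without a low count filter), Ezh2 and Nr4a2 (−0.406 and −0.155 with voom). The other 120 of 126 genes tracked kept their direction in all 15 alternatives.

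The replicate block changed the count of genes at an unadjusted p under 0.05 from 754 to 612 and called 0. Same-numbered MCAO and sham libraries deviated from their group means with correlations of −0.0617, −0.211 and 0.28, and same-numbered libraries of the 2 sides with 0.014, 0.273 and −0.17 in MCAO and 0.104, 0.21 and −0.0367 in sham. For genes of 10 CPM or more the values for the 2 sides were 0.24, 0.319 and 0.0216 in MCAO and 0.341, 0.326 and −0.126 in sham. Not every pair was above 0.1, so the numbers were not taken to pair the samples. Over all genes, however, 3 of the 6 contralateral libraries correlated best with their own number on the other side, and more did for genes of 10 CPM or more. Shared mice are therefore not excluded. With the number as a block across the sides, within MCAO and within sham (added after the values were seen), the test of the difference between sides called 0 genes (smallest adjusted p 0.335, for Scgb3a1) and had 383 genes at an unadjusted p under 0.05, against 578, of which 122 were shared. The interferon list then held 7 such genes, against 0. Depth limits low genes most, since a floor of 3 counts was 0.0643 to 0.101 CPM in these 6 libraries.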
